A study of Homo sapiens with 16 samples.

Results

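Of the 40118 peaks in 9 lists, 30702 lay on the autosomes outside chr13:61.7-94 Mb, and 459 of these touched the 1 kb around a transcript start of a protein-coding gene (promoter peaks). The 459 promoter peaks fell on 325 separate places and on 292 of the 19068 coding genes searched, or 1.53% of them. All material came from HEK293T, a line derived from human embryonic kidney cells, and the antibody was 1H6. G4 DNA-IPnat and G4 DNA-IPdenat were immunoprecipitations from purified genomic DNA of untransduced cells, without and with heat denaturation, and G4-ChIP was a conventional chromatin immunoprecipitation from fixed and sonicated cells. The AbC G4-ChIP lists, in which the antibody entered permeabilized cells before the final fixation, came from cells with a non-targeting shRNA (CT) or an shRNA against CGGBP1 (KD). CTnuc and KDnuc had no control DNA, CTut and KDut received control DNA with preformed quadruplexes in the lysate, and CTtr and KDtr had been transfected with the control DNA. The nuc pair was read on an Ion Torrent S5, with an input pooled from CT and KD, and all other libraries on a MinION. Each list stands for 1 library pooled from 4 replicates, so it carries no replicate error of its own, and the CGGBP1 level in the cells cannot be read from peak lists.

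A G-quadruplex (G4) is a four-stranded structure that guanine-rich DNA can form when runs of guanine stack on one another. Promoters of coding genes are often rich in G and C and in CpG, and several promoters of growth genes are textbook examples of G4-forming DNA. CGGBP1 is a protein that binds GC-rich triplet repeats.

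The sequences of 9 stretches show what the leading promoter peaks contain. The genes were taken from those with peaks in the most lists, and the capitals mark runs of at least 3 guanines. In ADAP1, TEX19, DUX4, POLR2J3, NBPF1 and TLE4 the stretch is a match to the canonical G4 signature, at least 4 runs of at least 3 guanines with loops of 1 to 7 bases, and the TEX19 match was shortened to 120 bases. No such match lay outside annotated exons in the other genes, so the 100 bases with the most guanine runs are given. The MUC3A stretch is exonic outside annotated UTRs, since exons covered 100% of its peak, and the other 8 are outside all annotated exons. Coordinates are those of hg38 and the strand shown is the one with the guanine runs.
MUC3A, chr7:100956395-100956494, minus strand: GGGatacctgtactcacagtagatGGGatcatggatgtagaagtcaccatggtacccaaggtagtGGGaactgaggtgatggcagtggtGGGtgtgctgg
USP17L24, chr4:9325002-9325101, plus strand: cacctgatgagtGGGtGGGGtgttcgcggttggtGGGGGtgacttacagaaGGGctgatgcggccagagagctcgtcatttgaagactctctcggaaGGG
TAF11L5, chr5:17525880-17525979, minus strand: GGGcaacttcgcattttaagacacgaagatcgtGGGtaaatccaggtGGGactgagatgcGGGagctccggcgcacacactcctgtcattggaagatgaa
ADAP1, chr7:905817-905875, plus strand: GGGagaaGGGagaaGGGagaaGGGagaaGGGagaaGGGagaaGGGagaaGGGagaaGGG
TEX19, chr17:82359752-82359871, minus strand: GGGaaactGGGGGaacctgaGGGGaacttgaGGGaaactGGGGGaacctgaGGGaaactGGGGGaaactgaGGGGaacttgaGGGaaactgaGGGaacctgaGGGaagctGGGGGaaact
DUX4, chr4:190175395-190175423, minus strand: GGGGGtGGGGGGtGGGGGtGGGGaGGGGG
POLR2J3, chr7:102572733-102572767, minus strand: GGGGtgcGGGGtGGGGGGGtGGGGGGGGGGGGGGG
NBPF1, chr1:16613213-16613237, minus strand: GGGGGcGGGtGGGGGctgtGGGGGG
TLE4, chr9:79571268-79571290, plus strand: GGGttGGGagacGGGtGGGcGGG
The ADAP1 stretch is a run of 9 guanine triplets spaced by the same 4 bases, and it lies in the peak of G4 DNA-IPdenat. The TEX19 stretch holds 12 guanine runs in an imperfect repeat. The USP17L24 stretch, 64 bases from its start, was found letter for letter in the peaks of 4 of the USP17L genes hit in 3 or more lists.

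Promoter peaks were a small part of every list (see the plot of promoter shares). The share was 0.549% in G4 DNA-IPdenat (74 of 13478 peaks), 1.35% in G4 DNA-IPnat (3 of 223) and 2.95% in G4-ChIP (22 of 745). In the AbC G4-ChIP lists the share was 1.04% in CTnuc (31 of 2994), 2.62% in KDnuc (152 of 5799), 1.61% in CTut (42 of 2602), 3.44% in KDut (63 of 1833), 1.94% in CTtr (30 of 1543) and 2.83% in KDtr (42 of 1485). The bases within 1 kb of a coding start made up 4.47% of the searched genome. All 9 shares lay below this value although peaks have a width and can reach into the window from outside.

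Most promoter peaks had no canonical start within 1 kb, and the start nearest to most of them was not CpG-rich. Of the 459 promoter peaks, 208 covered their nearest start, 131 lay upstream of it and 120 downstream. A canonical start of Ensembl, 1 per gene, lay within 1 kb of 188 of them (41.0%). Only 51 (11.1%) had a nearest start that was CpG-rich, meaning at least 55% GC and an observed to expected CpG ratio of at least 0.65 in the 500 bases on each side, against 38.0% of all 140999 separate coding starts. KDut (14 of 63 peaks, 22.2%) and G4-ChIP (5 of 22, 22.7%) had the highest shares of CpG-rich starts while CTnuc (1 of 31, 3.23%) and G4 DNA-IPdenat (2 of 74, 2.70%) had low ones. The exact 95% intervals were 12.7% to 34.5% in KDut and 0.329% to 9.43% in G4 DNA-IPdenat. These shares count each peak, so families with many hit copies weigh more. By gene the difference was small. Of the 292 genes with a promoter peak, 156 (53.4%) had a CpG-rich canonical start, reached by a peak or not, against 57.2% of all canonical starts.

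Promoter peaks were richer in G and C than the other peaks of the same list (see the plot of GC content). The median GC content of promoter peaks was 49.1% in CTnuc, 48.1% in KDnuc, 44.7% in CTut, 43.7% in KDut, 46.5% in CTtr, 44.2% in KDtr, 39.9% in G4 DNA-IPdenat, 45.6% in G4 DNA-IPnat and 40.9% in G4-ChIP. The other peaks had medians between 37.7% (G4-ChIP) and 39.3% (KDnuc). The difference was 5.93 ± 2.67 percentage points (mean ± SD, n = 9 lists) and positive in 9 of 9 lists (exact sign-flip permutation test over lists, two-sided, p = 0.00391, adjusted p = 0.0117 over 6 measures). The lists share cells and places, so they are not independent replicates of one condition. Within a list the promoter peaks varied widely, in KDnuc from 28.98% to 64.2% GC.

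GGG and CCC triplets followed the GC content. Promoter peaks held a median of 19.4 triplets per kb in G4 DNA-IPdenat, 24.2 in G4-ChIP, 33.8 in G4 DNA-IPnat, and between 25.1 (CTtr) and 35.5 (CTnuc) in the AbC G4-ChIP lists. The other peaks held 7.43 (G4 DNA-IPnat) to 17.5 (G4 DNA-IPdenat). The difference was 16.7 ± 7.68 triplets per kb (mean ± SD, n = 9 lists), positive in 9 of 9 lists (exact sign-flip permutation test, p = 0.00391, adjusted p = 0.0117).

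The canonical G4 signature was not set apart by the test. It was found in 67 of the 459 promoter peaks (14.6%). The share was 0% in G4 DNA-IPnat (0 of 3, with an exact interval up to 70.8%), 13.5% in G4 DNA-IPdenat, 9.09% in G4-ChIP, 3.23% in CTnuc, 12.5% in KDnuc, 19.0% in CTut, 25.4% in KDut, 16.7% in CTtr and 14.3% in KDtr. The other peaks had shares of 4.83% to 13.6%. The share was higher at promoters in 7 of 9 lists, by 4.09 ± 8.52 percentage points (mean ± SD, n = 9 lists, exact sign-flip permutation test, p = 0.191, adjusted p = 0.230). Among the 8 lists with at least 10 promoter peaks the difference was 6.30 percentage points and the adjusted p was 0.0281 by the same exact permutation test.

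Promoter peaks were weaker than the other peaks of their list (see the plot of fold enrichment). Fold is the enrichment that MACS2 gives a peak. The paper names the nolambda option, without a local background, for the AbC G4-ChIP and G4 DNA-IPdenat lists. Fold there is not an enrichment over the input at the same place. Its median at promoters was 4.99 in CTnuc, 4.41 in KDnuc, 3.77 in CTut, 3.50 in KDut, 3.72 in CTtr, 4.06 in KDtr, 4.71 in G4 DNA-IPdenat, 5.47 in G4 DNA-IPnat and 4.45 in G4-ChIP. The medians of the other peaks were 5.53, 4.85, 4.59, 4.18, 4.32, 4.65, 4.65, 5.88 and 4.65 in the same order. G4 DNA-IPdenat was the exception, with a promoter median above that of its other peaks. The difference was -0.47 ± 0.26 in fold (mean ± SD, n = 9 lists, exact sign-flip permutation test, p = 0.00781, adjusted p = 0.0117), and among peaks with a -log10 q of at least 4 it was 0.12 with an adjusted p of 0.996 by the same exact permutation test.

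A part of the promoter peaks sat near the lowest fold of their list. In KDnuc, 61 of 152 (40.1%) were within 5% of the list's lowest fold, against 19.0% of its other peaks. In G4-ChIP 14 of 22 (63.6%) were this close, against 50.9% of the others. The share was 31.7% against 13.4% in KDut, 28.6% against 11.6% in KDtr, 23.8% against 6.17% in CTut and 19.4% against 7.42% in CTnuc. It differed less in G4 DNA-IPdenat (14.9% against 12.2%) and CTtr (13.3% against 8.26%), and G4 DNA-IPnat had 0 of 3 against 10% of the others.

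Promoter peaks were also shared between lists less often than other peaks. A promoter peak overlapped a peak of another list in 6.76% of cases in G4 DNA-IPdenat, 18.2% in G4-ChIP, 25% in KDnuc, 46.0% in KDut, 64.3% in KDtr, 73.8% in CTut, 83.3% in CTtr, 83.9% in CTnuc and 100% in G4 DNA-IPnat. For other peaks the shares were 14.1%, 46.9%, 54.98%, 82.8%, 89.4%, 83.1%, 94.8%, 85.9% and 100%. The difference was -16.8 ± 13.5 percentage points (mean ± SD, n = 9 lists), negative in 8 lists and 0 in G4 DNA-IPnat (exact sign-flip permutation test, p = 0.00781, adjusted p = 0.0117). An overlap counts in both lists, so the 9 differences are not independent and this p-value is only descriptive. Limiting the starts to Ensembl canonical transcripts left an adjusted p of 0.103 by the same exact permutation test. Satellite-like tandem repeats were peaks with over 50% of bases matching at the alpha-satellite unit spacing, or over 10% in ATTCC or GGAAT. They made up 7.17% to 55% of the other peaks. Among promoter peaks they were 1 of 3 in G4 DNA-IPnat and 0 to 2 of the 22 to 152 in each other list. The rule does not look for other tandem repeats, such as the run in the ADAP1 stretch. The median length, 794 to 1948 bases at promoters, differed by 76.7 ± 380.2 bases from that of other peaks (mean ± SD, n = 9 lists, exact sign-flip permutation test, p = 0.566, adjusted p = 0.566).

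The comparison of KD with CT asks whether depletion of CGGBP1 changes what is captured at promoters. The number of promoter peaks was 31 in CTnuc and 152 in KDnuc, 42 in CTut and 63 in KDut, and 30 in CTtr and 42 in KDtr, and it was higher in KD in 3 of 3 pairs. The lists as a whole moved differently, with 1.94 times as many searched peaks in KDnuc as in CTnuc, 0.704 times in the ut pair and 0.962 times in the tr pair. The mean log2 ratio of the promoter counts was 1.12 ± 1.02 (SD, n = 3 pairs, exact sign-flip permutation test, p = 0.25, adjusted p = 0.375 over 6 measures). With 3 pairs this exact test cannot go below p = 0.25. The nuc pair carried most of it, since the ratio was 4.90 there and 1.5 and 1.4 in the ut and tr pairs.

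The promoter share of the list was 1.59 percentage points higher in KDnuc than in CTnuc, 1.82 higher in KDut than in CTut and 0.884 higher in KDtr than in CTtr. CT lists had a mean share of 1.53 ± 0.460% and KD lists of 2.96 ± 0.424% (SD, n = 3 each), and the groups did not overlap over all searched peaks. The test of the pairs gave p = 0.25 and an adjusted p of 0.375 (exact sign-flip permutation test, n = 3 pairs). The number of genes was 27 in CTnuc and 144 in KDnuc, 38 in CTut and 60 in KDut, and 27 in CTtr and 39 in KDtr (exact sign-flip permutation test, n = 3 pairs, p = 0.25, adjusted p = 0.375).

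Position moved with these counts in each pair, and depth of calling in the nuc and ut pairs but not in the tr pair. The lowest -log10 q was 2.47 in CTut and 2.39 in KDut, and 2.00 in CTtr and 2.50 in KDtr. CTnuc held peaks down to a -log10 q of 2.60 and KDnuc down to 2.45, and at or above 2.60 KDnuc kept 118 promoter peaks against 31 of CTnuc. At the common minimum of each pair, an alternative also added after the data were seen, the ut pair had 42 in CTut and 57 in KDut, and the tr pair 23 in CTtr and 42 in KDtr. Among peaks with a -log10 q of at least 4 the counts were 9 and 26 in the nuc pair, 27 and 21 in the ut pair and 12 and 17 in the tr pair, so that CTut then had more than KDut, while the promoter share stayed higher in KD in each pair. Promoter peaks on chromosome 1 beyond 200 Mb made up 13.2% in KDnuc, 25.4% in KDut and 26.2% in KDtr against 0%, 7.14% and 3.33% in CTnuc, CTut and CTtr. All searched peaks of these lists leaned the same way, with 4.38%, 7.58% and 6.73% there in KDnuc, KDut and KDtr against 1.07%, 1.46% and 1.94% in CTnuc, CTut and CTtr. Without that end of chromosome 1, an alternative added in the same way, the counts were 31 and 132 in the nuc pair, 39 and 47 in the ut pair and 29 and 31 in the tr pair. The part of copy number in this was not tested.

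Of the peaks of KDnuc, 62.7% overlapped no CTnuc peak, and of its promoter peaks 131 of 152 (86.2%, 95% interval 79.7% to 91.2%) did not. In KDut the values were 26.2% of all peaks and 46 of 63 promoter peaks (73.0%, 60.3% to 83.4%). In KDtr they were 27.6% of all peaks and 22 of 42 promoter peaks (52.4%, 36.4% to 68.0%). The KD promoter peaks thus lay above the background of their list in each pair. CT promoter peaks stood close to it, with 8 of 31 in CTnuc (25.8%) against 24.3% of all peaks without KDnuc overlap, 23 of 42 in CTut (54.8%) against 51% and 8 of 30 in CTtr (26.7%) against 31.6%. Intervals are exact and cover counting error only. The KD promoter peaks without a CT partner had lower median fold (4.35, 3.38 and 3.75 in nuc, ut and tr) than those with one (5.12, 4.41 and 4.47).

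The genes followed the peaks. In the nuc pair 24 genes were listed in both, 120 in KDnuc only and 3 in CTnuc only. In the ut pair 14 were in both, 46 in KDut only and 24 in CTut only, and in the tr pair 18, 21 and 9. The shared genes were 16.7% of the KDnuc genes and 88.9% of the CTnuc genes, 23.3% and 36.8% in the ut pair, and 46.2% and 66.7% in the tr pair. Fold at the genes of both lists moved little, with a median log2 ratio of KD over CT of -0.01 in nuc, 0.05 in ut and 0.19 in tr. KD had the higher fold at 11 of 24, 8 of 14 and 14 of 18 of them.

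Over all searched peaks GC content had one direction over the pairs, and fold and the signature did not. Median GC was lower in KD in 3 of 3 pairs, by 1.45 ± 0.758 percentage points on average (SD, n = 3 pairs, exact sign-flip permutation test, p = 0.25, adjusted p = 0.375). This direction did not hold without chromosome 1 beyond 200 Mb. Median GC was then 45.7% in CTut and 46.4% in KDut, and 45.6% in CTtr and 48.6% in KDtr. Only the nuc pair kept it, with 49.1% in CTnuc and 48.4% in KDnuc. Median fold differed by -0.58 in nuc, -0.27 in ut and 0.34 in tr (exact sign-flip permutation test, n = 3 pairs, p = 0.750, adjusted p = 0.750). The median fold of the other peaks moved in the same direction in each pair. The share with the canonical signature differed by 9.27, 6.35 and -2.38 percentage points in nuc, ut and tr (exact sign-flip permutation test, n = 3 pairs, p = 0.500, adjusted p = 0.600).

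Among genes, copies of repeated families led the lists (see the plot of genes by list). Of the 292 genes, 219 were hit in 1 list, 38 in 2 and 35 in 3 or more, and 15 of these 35 belong to multicopy families. The list of multicopy families had 40 of 265 members hit (15.1%) against 1.53% of all coding genes. This list was drawn up with earlier results of these data known, and a single peak can reach several copies. The shares are therefore descriptive and no test of enrichment. USP17L genes, copies of a deubiquitinating enzyme gene in an array on chromosome 4, had 18 of 26 members hit, 13 in CTnuc, 17 in KDnuc, 8 in CTut and 2 each in KDut, CTtr and KDtr. TAF11L genes, copies related to a subunit of the general transcription factor TFIID on chromosome 5, had 7 of 13 members hit, 5 in CTnuc, 7 in KDnuc and 3 or 4 in the other AbC G4-ChIP lists. Of the 31 CTnuc promoter peaks 26 were at such families alone. Without them CTnuc had 5 promoter peaks and KDnuc 113. Reads of near-identical copies can be placed on the wrong copy, so the single member that carries a peak is uncertain.

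USP17L24 was hit in 7 lists. Its fold was 5.47 in G4 DNA-IPnat, 6.24 in CTnuc, 6.25 in KDnuc, 7.22 in CTut, 6.11 in KDut, 4.72 in CTtr and 5.04 in KDtr, without one order of KD and CT. USP17L23 had 6.61 in CTnuc, 9.38 in KDnuc, 8.74 in CTut, 5.83 in KDut, 6.18 in CTtr and 6.68 in KDtr, and its KDnuc peak had the highest promoter fold of that list. The highest of CTnuc was at USP17L15, with 7.26 in CTnuc, 7.16 in KDnuc and 4.01 in CTut. TAF11L5 and TAF11L6, also in 7 lists, are neighbors that single peaks reached together, with a shared fold of 4.71 in G4-ChIP, 4.07 in CTut, 3.86 in KDut, 4.06 in CTtr and 4.45 in KDtr. TAF11L5 had 5.74 in CTnuc and 6.41 in KDnuc, and TAF11L6 had 5.93 and 4.98. NBPF1, of the neuroblastoma breakpoint family, had 5.03 in CTnuc, 5.01 in KDnuc, 3.82 in CTut, 3.90 in KDut, 3.71 in CTtr and 4.45 in KDtr. DUX4, a homeobox gene that sits in a macrosatellite repeat on chromosome 4, had 8.19 in CTut, 7.88 in KDut, 5.81 in CTtr and 7.92 in KDtr. Its peak covered the canonical start.

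MUC3A, which encodes a membrane mucin of the intestine, held the highest promoter fold in 4 lists. Its fold was 9.90 in CTut, 10.9 in KDut, 8.23 in CTtr and 12.0 in KDtr, higher in KD in both pairs, and 5.44 in G4 DNA-IPnat and 4.705 in G4-ChIP. It was not listed in CTnuc or KDnuc. The peak, chr7:100956199-100959116 in KDtr, lay wholly in exons around an alternative start and 6665 bases from the canonical start. MUC6, a secreted mucin of the stomach, had 3.81 in CTut, 4.41 in KDut, 4.81 in CTtr and 4.30 in KDtr, also wholly exonic in its highest peak. The MUC6 peaks came no closer than 18410 bases to the canonical start. Folds of unlike lists are not on one scale. The lowest fold of any listed peak was 3.08 in CTut, 3.19 in KDut, 3.21 in CTtr and 3.64 in KDtr. The median of the other peaks was lower in KDut than in CTut and higher in KDtr than in CTtr.

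ADAP1, an adaptor with a domain for Arf GTPases, was the strongest promoter in both DNA-IPs from purified DNA. Its fold was 24.3 in G4 DNA-IPdenat and 6.95 in G4 DNA-IPnat, and 5.95 in KDut, 7.34 in CTtr and 7.32 in KDtr. The peak (chr7:905358-906797 in G4 DNA-IPdenat) covered an alternative start, and its peaks came no closer than 47883 bases to the canonical start. TEX19, a gene expressed in testis, had 8.26 in CTut, 8.68 in KDut, 7.13 in CTtr and 8.68 in KDtr. GPI, the glycolytic enzyme glucose-6-phosphate isomerase, had 7.31 in CTut, 6.98 in KDut, 7.21 in CTtr and 6.09 in KDtr. The GPI peaks came no closer than 25982 bases to the canonical start. ADAP1, TEX19 and GPI had no listed promoter peak in CTnuc or KDnuc.

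POLR2J3, a copy of the gene of a subunit of RNA polymerase II, had 5.52 in KDnuc, 3.09 in CTut, 3.91 in KDut, 3.27 in CTtr and 4.44 in KDtr, higher in KD in both pairs where CT was listed. Its KDnuc peak had the highest GC content of all promoter peaks, 64.2%, and covered the CpG-rich canonical start. The lowest fold of the list was also higher in KD in the ut and tr pairs. TLE4, a co-repressor of the Groucho family, was in all 6 AbC G4-ChIP lists, with 4.69 in CTnuc, 4.80 in KDnuc, 3.86 in CTut, 4.51 in KDut, 3.69 in CTtr and 4.49 in KDtr. Its 23 peaks spread over 4 places along the gene. HBB, the beta-globin gene, had the highest promoter fold of G4-ChIP, 11.9, with 4.46 in CTut and 5.61 in KDut. The G4-ChIP peak lay 705 bases downstream of its nearest start, and exons covered 67.4% of it. In 28 of the 35 genes hit in 3 or more lists, peaks of at least 3 lists met at one place.

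Most genes of G4 DNA-IPdenat and of G4-ChIP were in no other list, while the 3 of G4 DNA-IPnat (ADAP1, MUC3A and USP17L24) were all in other lists. Of the 74 genes of G4 DNA-IPdenat 66 were in no other list and 8 were in an AbC G4-ChIP list. Of the 25 genes of G4-ChIP 7 were in an AbC G4-ChIP list and 0 in G4 DNA-IPdenat. Since 74 genes are few among the 19068 searched, this 0 does not set the lists apart. Little sharing was not limited to promoters. Of the other peaks, 14.1% in G4 DNA-IPdenat and 46.9% in G4-ChIP overlapped a peak of another list.

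21 genes were listed in KD and not in CT in at least 2 pairs, and 3 in CT and not in KD in at least 2 pairs. The 3 were USP17L20 (4.86 in CTnuc, 3.75 in CTut), AMY1C (3.78 in CTut, 3.73 in CTtr, and 4.72 in KDnuc) and AMY1B (4.45 in CTnuc, 3.08 in CTut), the last pair being copies of salivary amylase. WDR64, a WD repeat gene, was the only gene of KD in all 3 pairs, with 4.41 in KDnuc, 3.41 in KDut and 3.93 in KDtr, but its 3 peaks lay at 3 separate starts. By mean fold over the AbC G4-ChIP lists that hold them, CT lists included, the others that led were TAF11L9 (5.51 in KDnuc, 4.58 in KDut, 3.74 in CTtr, 4.32 in KDtr), TAF11L7 (5.16 in KDnuc, 4.01 in CTut, 4.01 in KDtr), GOLGA6A (4.695 in KDnuc, 3.99 in KDut), ACBD3 (4.21 in KDnuc, 4.36 in KDtr), MAPRE2 (4.64 in KDnuc, 3.47 in KDut), TARS3 (4.62 in KDnuc, 3.43 in KDut), PDXDC1 (4.27 in KDnuc, 3.73 in KDtr), SPDYE2 (4.26 in KDut, 3.74 in KDtr), PCSK6 (4.23 in KDnuc, 3.67 in KDtr), OR4F17 (4.75 in KDnuc, 3.57 in KDut, 3.48 in CTtr) and SPDYE2B (4.52 in KDnuc, 3.29 in KDut). MAPRE2 encodes a protein that binds microtubule ends and PCSK6 a proprotein convertase. In 9 of the 21 the peaks of 2 or more lists, with CT lists counted too, met at one place. TAF11L7 and TAF11L9 were among these 9, each with a CT peak at that place. A canonical start lay within 1 kb of a peak in 12 of the 21. 6 of the 21 (28.6%) are on chromosome 1 beyond 200 Mb and 4 (19.0%) on chromosome 18, which hold 2.01% and 1.40% of the coding genes searched. Of the genes in KD only, this end of chromosome 1 held 15.0% in nuc, 39.1% in ut and 52.4% in tr.

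Gene lists with a known tie to G4s were not hit. Of 17 genes with promoter G4s described in the literature, among them BCL2, VEGFA and KDR, 0 had a promoter peak, and of 15 G4 helicases and binding proteins 0 did, CGGBP1 included. Of 39 HOX genes 0 did. With 1.53% of all coding genes hit, a count of 0 in lists this short does not set them apart. Zinc finger genes had 4 of 553 members hit (0.723%), ZNF595 (4.81 in CTnuc, 4.75 in KDnuc, 3.77 in CTut), ZNF24 (4.19 in KDnuc, 3.30 in KDut), ZSCAN30 (4.11 in KDnuc) and ZNF208 (4.09 in G4 DNA-IPdenat). The CpG-rich start of ZNF24 was covered by its peaks in KDnuc and KDut. Olfactory receptors had 4 of 415 hit (0.964%), OR4F17, OR7G3 (4.84 in G4 DNA-IPdenat), OR5K1 (4.42 in KDnuc) and OR2A7 (3.37 in CTtr). Clustered protocadherins had 1 of 53 hit, PCDHB13 (4.64 in KDnuc). The histone list had 1 of 82 hit, H3-3A (4.90 in G4-ChIP, 3.73 in KDtr), which encodes a replacement histone outside the clusters. The ribosomal list had 2 of 88 hit, RPL26L1 (3.24 in KDut), a paralog of a ribosomal protein, and RPS6KA2 (4.20 in KDnuc), which matched the name pattern but encodes a kinase.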

How the data were processed

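The data analyzed were the called peaks of 9 HEK293T immunoprecipitations. Reads were aligned to hg38 by the authors (minimap2 in the methods, with bowtie2 named in the supplement for the nuc libraries), and peaks were called with MACS2 against input, with a broad cutoff of 0.01 and a bandwidth of 300 for G4-ChIP and G4 DNA-IPnat, and of 3000 otherwise. For every peak the authors deposited a fold ratio over input, a score, a -log10 p-value and a -log10 q-value. The fold and the q-value were used without change. CTnuc and KDnuc list 3796 and 7753 peaks whose numbers run to 10757 and 22266, and what left out the other numbers is not given in the sources used here, so the nuc counts are those of the peaks listed. Reads and inputs were not analyzed here, so the depth behind a peak was not used.

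Starts were those of all transcripts of protein-coding genes in GENCODE version 44 (164149 on the chromosomes searched). GC content, GGG and CCC triplets and the signature were counted on both strands of the reference, with Python 3.11.15, pysam 0.24.0 and samtools 1.23.1. Overlap was at least 1 bp. KD and CT were compared within the nuc, ut and tr pairs, which the labels give, and promoter with other peaks over lists, by exact sign-flip permutation tests with Benjamini-Hochberg adjustment over 6 measures (scipy 1.17.1 for intervals). The functions were checked on 200 made-up peaks, and 16 of 16 checks were recovered. Members, gene lists and tests were chosen with earlier results of these data known. Named genes were those in 3 or more lists (at most 25), the gene with the highest fold of each list, those of KD or CT alone in 2 or more pairs (at most 12), at most 4 hit members of each gene list, and CGGBP1. Of the genes in 3 or more lists 1 is not reported here by name, and it stays in the counts. The alternatives were a -log10 q of at least 4, windows of 500 bp and 3 kb, other transcript sets, the peak centre and all chromosomes. Others were no satellite-like tandem repeats, no multicopy families, central 1000 bp, means, subsets of lists, 70% overlap, single pairs left out and unpaired labels.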

Additional observations from a re-analysis of the deposited data

Results flagged for a closer look

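Median fold at promoters moved in opposite directions between pairs, with differences of KD from CT of -0.58 in nuc, -0.27 in ut and 0.34 in tr, and this difference between pairs was not tested. It was not limited to promoters. The median of the other peaks was 5.53 in CTnuc and 4.85 in KDnuc, 4.59 in CTut and 4.18 in KDut, and 4.32 in CTtr and 4.65 in KDtr. The share of promoter peaks with the canonical G4 signature also moved in opposite directions between pairs. It differed by 9.27 in nuc, 6.35 in ut and -2.38 percentage points in tr, also not tested.

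Promoter peaks were present in more than 3 cases on the chromosomes left out of the report. On chromosome X there were 9 in G4 DNA-IPdenat, 23 in KDnuc, 7 in CTut, 4 in KDut and 4 in KDtr, against 2 in CTnuc and 3 in CTtr. In chr13:61.7-94 Mb there were 8 in KDnuc, 4 in CTut, 15 in KDut, 7 in CTtr and 10 in KDtr, against 1 in CTnuc. The genes in that stretch of chromosome 13 included MYCBP2 in KDnuc, CTtr, KDtr, G4 DNA-IPdenat and G4-ChIP, and PCDH9 in KDnuc, CTut, KDut, CTtr and KDtr.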

How the results depend on the processing

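The difference between promoter and other peaks in median GC and in triplets kept its direction and stayed past the threshold in 14 of 14 and 13 of 13 alternatives. The weaker fold of promoter peaks did not hold among peaks with a -log10 q of at least 4 (0.12), and it lost its call with canonical transcripts (-0.28, adjusted p = 0.0820 by the exact permutation test) and with the peak centre within 1 kb of a start (-0.28, adjusted p = 0.150 by the exact permutation test). The smaller overlap with other lists lost its call with a -log10 q of at least 4 (-8.82 percentage points), protein_coding transcripts (-11.3) and canonical transcripts (-8.61). The higher share with the signature passed the threshold only among lists with at least 10 promoter peaks (6.30 percentage points). The difference in length turned in sign with a -log10 q of at least 4 (-4.78 bases), a 3 kb window (-40.8), canonical transcripts (-22.4), the peak centre (-176.3), all chromosomes (-91.3), no multicopy families (-0.667) and means (-78.1). The cause of these shifts was not tested.

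The comparisons of KD with CT could not pass the threshold with 3 pairs. The higher number of promoter peaks, promoter share and number of genes in KD kept their direction in 15 of 15 alternatives each. Median GC turned to higher in KD with a -log10 q of at least 4 (0.28 percentage points), the signature share to lower in KD with a 3 kb window (-0.067 percentage points), and median fold to higher in KD without the nuc pair (0.036). Without chromosome 1 beyond 200 Mb, median GC was higher in KD in the ut and tr pairs and lower in the nuc pair. Leaving out each pair in turn gave log2 ratios of 0.54 to 1.44 for promoter peaks and 0.59 to 1.54 for genes, and differences of 1.23 to 1.70 percentage points for the promoter share, -1.68 to -1.01 for GC, -0.42 to 0.036 for fold and 1.98 to 7.81 for the signature share. Without the replicate block, which ignores the pairing, the exact permutation test of the labels gave p = 0.200 for the log2 ratio of 1.12 in promoter peaks, p = 0.100 for the share difference of 1.43 percentage points and p = 0.100 for the log2 ratio of 1.20 in genes, where 0.100 is the smallest it can give, and it changed no call.

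With a -log10 q of at least 4 the promoter share was 1.1% in G4-ChIP, 0.485% in CTnuc, 1.048% in KDnuc, 1.92% in KDut and 1.71% in KDtr. With a window of 500 bp the promoter share was 0.275% in G4 DNA-IPdenat, 0.568% in CTnuc and 2.0003% in KDnuc. With a window of 3 kb the promoter share was 2.69% in G4 DNA-IPdenat, 6.85% in G4-ChIP, 1.84% in CTnuc, 4.93% in KDnuc, 2.73% in CTut, 5.84% in KDut, 3.11% in CTtr and 4.44% in KDtr. With transcripts of type protein_coding only the promoter share was 0.23% in G4 DNA-IPdenat, 1.64% in KDnuc, 0.961% in CTut, 2.4% in KDut, 1.3% in CTtr and 1.68% in KDtr. With canonical transcripts only the promoter share was 0.0668% in G4 DNA-IPdenat, 1.07% in G4-ChIP, 1.1% in KDnuc, 0.846% in CTut, 1.8% in KDut, 0.778% in CTtr and 1.01% in KDtr. Without satellite-like tandem repeats the promoter share was 3.45% in KDnuc, 2.5% in CTut, 4.67% in KDut and 3.81% in KDtr.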
